A study of Mus musculus with 8 samples.

Results

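The peaks described here lie in the 5′ untranslated regions (5′ UTRs) of mRNAs. Each was called from reads of RNA recovered by pull-down of DDX5 from crosslinked mouse intestinal epithelial cells (IECs). DDX5 is an RNA helicase of the DEAD-box family. A peak was taken as a 5′ UTR peak when it overlapped a 5′ UTR exon, and no coding sequence, of any GENCODE M21 transcript on its own strand. By this rule, 1878 of 26879 deposited peaks were 5′ UTR peaks. They made up 91 of 1278 peaks in the small intestine list, 1150 of 16455 in a colon list named mAb and 637 of 9146 in a colon list named rAb, and the 3 lists were kept apart. The rule used the position of a peak and not its enrichment. The colon lists hold every called peak, and few of their 5′ UTR peaks passed the cutoff for enrichment over input given below.

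RNA was mapped by enhanced crosslinking and immunoprecipitation (eCLIPseq), in which UV light links a protein to the RNA it touches, RNase trims the RNA, the protein is immunoprecipitated (IP), and the recovered fragments are compared with an input library of the same size range that was not immunoprecipitated. The small intestine had 2 CLIP and 2 input samples, from epithelial cells released with EDTA from 8-week-old female wild-type C57BL/6 mice. The colon had 1 CLIP and 1 input sample for each of mAb and rAb, also from EDTA-released epithelium of C57BL/6 mice. The labels called the colon samples wild type, while the growth protocol named 120-day-old Apcfl/+ CDX2Cre mice. In these mice Cre follows a Cdx2 promoter and 1 copy of the tumor suppressor Apc is floxed. The paper's methods described younger, wild-type female mice, so the colon genotype and age are uncertain. The same DDX5 antibody catalogue number was listed for every CLIP sample, so the difference between the colon lists mAb and rAb is unknown.

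The 5′ UTR runs from the cap of an mRNA to its start codon. The small ribosomal subunit binds near the cap and scans along it, and helicases unwind the structures in its path. Many mammalian 5′ UTRs are rich in G and C, begin within CpG islands, and can hold short upstream open reading frames or other elements that set how much protein is made. DDX5 itself is known mainly from the nucleus, where it takes part in transcription, splicing and the maturation of small RNAs.

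To show the RNA that the results below turn on, 30 bases of the crosslinked strand were read from the GRCm38 genome at 9 sites. A site here is a peak with a −log10 p above 3 and a log2 fold of IP over input above 3, the cutoff of the study. Each of the first 5 genes had a site overlapped by a peak of another list. Sumo3, Kcmf1 and Jun carried leading or repeated sites of a single list, and 2410002F23Rik is the gene whose sites lay on small nucleolar RNA (snoRNA) genes. Capitals mark CG dinucleotides, and each sequence is written 5′ to 3′.
Zfhx3: gCGcccCGtgggtgaatcccCGcCGCGcct
Ctnnb1: ggCGggggcctCGcctcCGtggccCGCGga
Ptp4a1: caagatggcctCGgtggcCGccCGCGctCG
Dynll1: gccCGcaccttccctaggagctCGcagcag
Kctd20: ggCGggggCGCGCGgtggcCGgagcttgga
Sumo3: CGtgactCGccCGctccagtgccacCGgtt
Kcmf1: ggccCGccCGggggaacCGCGgggcccCGg
Jun: ttaaggctgccacCGagactgtaaagaaaa
2410002F23Rik: tccaaacacccttgaggacacagtgcccct
These stretches lie at chr8:108715029-108715058 (Zfhx3, plus strand), chr9:120933840-120933869 (Ctnnb1, plus), chr1:30949280-30949309 (Ptp4a1, minus), chr5:115300853-115300882 (Dynll1, minus), chr17:28952494-28952523 (Kctd20, plus), chr10:77606256-77606285 (Sumo3, plus), chr6:72899240-72899269 (Kcmf1, minus), chr4:95051792-95051821 (Jun, minus) and chr7:44248117-44248146 (2410002F23Rik, plus). All of them fell in exon 1 of the transcript named for the peak. Zfhx3, Ctnnb1, Ptp4a1, Kctd20 and Kcmf1 each held 5 CG dinucleotides, Sumo3 held 4, Dynll1 held 2, Jun held 1, and 2410002F23Rik held 0.

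The lists were first checked against markers of the labelled tissue. Of 10 markers of intestinal epithelium, 6 carried a listed peak in the small intestine, 9 in mAb and 8 in rAb. Of 7 genes of small intestine enterocytes, 6 carried a peak in the small intestine list, where the defining lipid handling genes Fabp1, Fabp2, Apoa1, Apoa4 and Apob were all present, and the colon lists had a peak on none of them. Of 5 colonocyte genes, 4 carried a peak in mAb and 1 in rAb. Of 9 stromal markers, 6 carried a peak in mAb and 4 in rAb, among them the collagens Col1a1, Col1a2 and Col3a1 in both, and of 8 leukocyte markers 2 did in each colon list (Cd74 and Lyz2), while the small intestine list, which holds enriched peaks alone, had a peak on no stromal or leukocyte marker. The part of these other cells in the colon 5′ UTR peaks was not tested. The files gave 1 value per peak and list, so no spread between animals could be given, and the deposited p compares the reads of an IP library with those of its input at a peak.

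The 5′ UTR share of all listed peaks was close in the 3 lists, while the number of enriched peaks was not. 5′ UTR peaks were 7.12% of the small intestine list (exact Clopper-Pearson 95% interval, 5.77 to 8.67), 6.99% of the mAb list (6.60 to 7.39) and 6.96% of the rAb list (6.45 to 7.51); these and all intervals below cover counting error only. All 91 small intestine 5′ UTR peaks were sites, but so were 100% of the peaks in that list, which was deposited after the cutoff. In mAb, 14 of 1150 5′ UTR peaks were sites, 1.22% (0.667 to 2.03), where 1.22% of all mAb peaks were. In rAb, 10 of 637 were, 1.57% (0.755 to 2.87), where 1.99% of all rAb peaks were. The share of colon 5′ UTR peaks past the cutoff was thus at, or within counting error of, the share of its list. The count was also read at other cutoffs. With a −log10 p above 5, 91 small intestine, 10 mAb (0.870%) and 7 rAb (1.10%) 5′ UTR peaks passed, where 97.9%, 0.675% and 1.38% of all peaks did. With a log2 fold above 4, 40 (44.0%), 12 (1.04%) and 8 (1.26%) passed, where 60.9%, 0.632% and 1.19% of all peaks did. With a log2 fold above 1, 23 mAb (2.0%) and 18 rAb (2.83%) 5′ UTR peaks passed, where 2.55% and 4.46% of all peaks did.

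**Figure D1:**
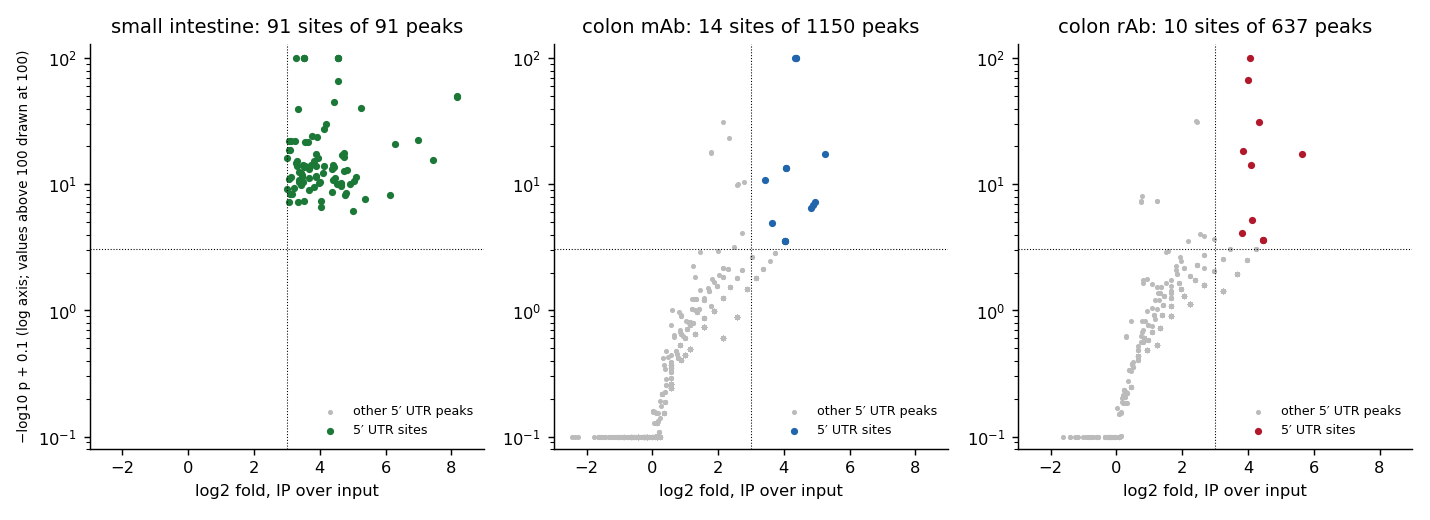
Log2 fold of IP over input (x axis) against −log10 p plus 0.1 (y axis, log scale, values above 100 drawn at 100) for each 5′ UTR peak, by list; dotted lines mark the cutoff of 3 for both values. The 91 small intestine peaks all lie past the cutoff, while 14 of 1150 mAb peaks and 10 of 637 rAb peaks do and most of the rest sit along a band of low folds and low −log10 p.

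The median log2 fold of the 5′ UTR peaks was at or below that of their list as a whole. It was 3.89 in the small intestine (quartiles 3.43 and 4.56), against 4.29 for all peaks of that list. It was 1.06 in mAb (0.21 and 2.15; 95% interval of the median, 0.98 to 1.15), against 1.15, and 1.65 in rAb (0.85 and 2.46), against 2.24. Coding sequence peaks, the largest class of the colon lists, had medians of 3.73, 0.98 and 1.65 in the same order, and 3′ UTR peaks had 4.56, 1.15 and 2.24. Within genes that carried both kinds of peak and no small RNA gene under the 5′ UTR peak, the difference of the gene medians, 5′ UTR minus coding, had a median of 0.00 over 563 mAb genes (interval -0.18 to 0.00; higher in the 5′ UTR in 254, in coding sequence in 282) and of 0.00 over 267 rAb genes (-0.13 to 0.00; 117 and 131).

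The colon values rested on few reads. Of the 1150 mAb 5′ UTR peaks, 855 could be traced to whole reads, with a median of 4 IP and 2 input reads, and of the 637 rAb peaks 578 could, with medians of 4 and 4. Tracing needs a −log10 p above 0, which the lists give to enriched peaks alone, so traced peaks all had a log2 fold above 0. A −log10 p of 0 was listed for 280 mAb and 56 rAb 5′ UTR peaks. Over the whole lists, 13011 of 16455 mAb and 8282 of 9146 rAb peaks had a −log10 p above 0 and under the cap of 400. A log2 fold above 3 was reached by 33 mAb and 119 rAb 5′ UTR peaks, of which 14 and 10 also passed the cutoff on p. The upper quartile of the log2 fold was 2.15 in mAb and 2.46 in rAb for 5′ UTR peaks. For all peaks of these lists it was 2.15 and 3.24, so a fold above 3 was common in rAb as a whole. The rAb fold is larger at the same reads because by this tracing its input library was 3.15 times as deep as its IP library, against 1.48 times in mAb, so 3 IP reads over 1 input read give 3.24 in rAb and 2.15 in mAb. With at least 10 IP reads, 11 of 76 mAb 5′ UTR peaks were sites, 14.5% (7.45 to 24.4), where 16.6% of all such mAb peaks were, and 6 of 41 rAb 5′ UTR peaks, 14.6% (5.57 to 29.2), where 16.8% of all such rAb peaks were. The medians of these deeper, enriched peaks were 1.30 for mAb (all mAb peaks, 1.49) and 1.23 for rAb (all rAb peaks, 1.43).

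**Figure D2:**
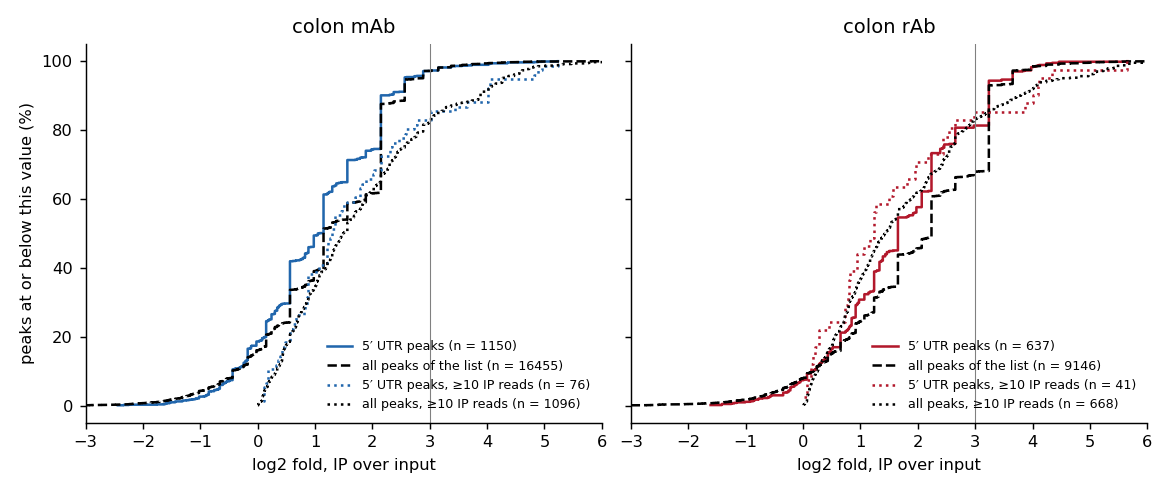
Cumulative share of peaks (y axis, %) at or below each log2 fold of IP over input (x axis) in the 2 colon lists, for 5′ UTR peaks and for all peaks of the list, for every peak and for traced peaks with at least 10 IP reads; the grey line marks a log2 fold of 3. Steps come from low read numbers, and with at least 10 IP reads the 5′ UTR medians are 1.30 in mAb and 1.23 in rAb, below those of all such peaks (1.49 and 1.43).

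In the small intestine, the 91 sites lay on 70 genes, 16 of which held more than 1, and log2 folds ran from 3.0 (Nus1) to 8.17 (Zfhx3). The 10 leading genes by their best peak were Zfhx3 (8.17), Hnrnpk (6.99), Ctnnb1 (6.30), Dmd (6.13), Kcmf1 (5.38), Ptp4a1 (5.26), Gm20594 (5.10), Pls1 (5.05), Luzp1 (5.00) and Atp2b1 (4.92). Zfhx3 encodes a zinc finger homeobox transcription factor, and its 3 abutting intervals, of 7, 17 and 6 bases, had their centres 388, 400 and 411 bases into a 5′ UTR of 733 bases, with log2 folds of 7.43, 8.17 and 8.16. Ctnnb1 encodes β-catenin, which joins cadherins to actin and carries Wnt signals. Its 3 intervals had log2 folds of 4.56, 6.30 and 3.99. The first and second abut in the exon 1 of the printed sequence, that of an annotated transcript of 5 exons. Their centres lay 44 and 90 bases from the nearest annotated start. The third lies upstream, on the first exon of a transcript of 15 exons, and 19 of its 39 bases ran past the end of that exon. The first and second lie past that end as well. At the third, the overlapping colon peaks had -0.17 in mAb and -0.28 in rAb. Pls1 encodes plastin 1, which bundles actin in microvilli of the brush border, and Atp2b1 a calcium pump of the plasma membrane. Adgrb1, Jun and Zbtb14 also had 3 sites each.

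Some of the leading peaks reached beyond the annotated 5′ UTR. At Hnrnpk, which encodes the RNA-binding protein hnRNP K, 94 of the 104 bases lay before the annotated transcript start, at Ptp4a1, a tyrosine phosphatase, 102 of 145 bases did, at Dmd, the dystrophin gene, 12 of 18, and at Atp2b1 48 of 95. At Luzp1, 21 of 35 bases ran past the end of the exon into the intron. Over all 91 small intestine peaks, 14 began before the annotated start of the exon, 10 ran past its end and 69 lay wholly in an exon. The authors' own region labels placed 86 of the 91 in a 5′ UTR, 3 in a proximal intron and 2 in a distal intron. In the colon lists 1010 of 1150 mAb peaks (87.8%) and 582 of 637 rAb peaks (91.4%) lay wholly in an exon.

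At the cap of 400 for −log10 p stood 7 of the 91 small intestine sites, all of them 13 bases or shorter. Of all 1278 peaks of that list, 93 stood at the cap, a share close to that of the 5′ UTR peaks. They were 3 abutting intervals of 4 to 9 bases on Zbtb14 (log2 fold 4.55 each), 3 of 6 to 13 bases on Adgrb1 (3.51 each) and 1 of 12 bases on Pappa (3.29). Zbtb14 encodes a zinc finger protein, Adgrb1 an adhesion G protein-coupled receptor known from the brain and Pappa a secreted metalloproteinase. Abutting intervals with the same fold are counted here as separate peaks, as the lists give them. The 3 Adgrb1 intervals also overlapped Gm26117, annotated as a miRNA gene, and were the only small intestine 5′ UTR peaks on a small RNA gene. In mAb the peak that overlapped them had a log2 fold of 1.73 (9 IP over 4 input reads).

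In mAb, the 14 sites lay on 11 genes, and those described here are given from high to low log2 fold. Ctnnb1 led with 5.24 (51 IP over 2 input reads), followed by Kctd20 with 4.96 (21 over 1), Zfhx3 with 4.81 (19 over 1), Pnck with 3 intervals at 4.35 to 4.36, Cdk5r2 with 2 intervals at 4.06 (45 over 4), Ptp4a1, Mier1 and Coro1c with 4.02 each (11 over 1), Gas6 with 3.65 (17 over 2) and Dynll1 with 3.44 (44 over 6). An input of 1 read stands for 0 or 1, and 6 of the 11 sites with traced reads had it. Cdk5r2 encodes an activator of the kinase Cdk5, known from neurons, and Pnck a calmodulin-dependent kinase. The intervals of both genes were 4 to 20 bases long, and those of Pnck stood at the cap for −log10 p. Coro1c encodes an actin-binding coronin and Gas6 a ligand of receptor tyrosine kinases. Of the 132 bases of the Coro1c peak, 80 ran past the exon end into the intron. Of the 86 bases of the Ctnnb1 peak, 21 lay before the annotated start of the exon. Just outside the cutoff stood a 2410002F23Rik peak, where the log2 fold was 2.78 and the −log10 p 10.4, and a Trip12 peak, where they were 3.73 and 2.74 (9 IP reads over 1).

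In rAb, the 10 sites lay on 7 genes. Sumo3, which encodes a small ubiquitin-like modifier, led with 5.65 (32 IP over 2 input reads). Stk24, a kinase, and Pds5b, a cohesin regulator, had 4.46 each (7 over 1, the fewest IP reads among the colon 5′ UTR sites with traced reads). 2410002F23Rik had 4 sites, at 4.34 (58 over 9), 4.09 (27 over 5), 4.06 (at the cap) and 4.01 (133 over 26). Prdx2, a peroxiredoxin that breaks down peroxide, had 4.11 (11 over 2), the dynein light chain gene Dynll1 3.86 (37 over 8) and the transcription factor gene Mef2a 3.82 (9 over 2). Just outside stood Higd1a, at 2.98 on the log2 scale with a −log10 p of 3.61, and Rabggtb, at 3.46 with 2.97.

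All 4 rAb sites of 2410002F23Rik lay on snoRNA genes in its exons, 2 on Gm26247 and 2 on Gm23991. snoRNAs guide the modification of ribosomal RNA and are cut out of longer host transcripts. A read at such a place may come from the snoRNA or from the host, and these cannot be told apart here. The same gene had 7 5′ UTR peaks in mAb with log2 folds of 0.83 to 2.78, on the snoRNA genes Gm26247, Gm23991 and Snord88a, with up to 209 IP reads but no peak past the cutoff, and 7 in rAb with 2.43 to 4.34. In all, 24 of 1150 mAb 5′ UTR peaks (2.09%) and 23 of 637 rAb peaks (3.61%) overlapped a small RNA gene. Rpl32, a ribosomal protein gene where all 9 mAb and 7 of 8 rAb 5′ UTR peaks lay on Snora7a, had the most 5′ UTR peaks of any gene, 9 in mAb (log2 folds of -1.58 to -0.18) and 8 in rAb (-0.71 to 0.95), so all 9 mAb peaks had fewer IP than input reads at equal depth. Without the peaks on small RNA genes, rAb had 6 sites among 614 5′ UTR peaks (0.977%) and mAb kept its 14. Small RNA genes were looked up under 5′ UTR peaks only. These shares therefore have no like share over all peaks of the lists to be read against.

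The position of the peaks along the transcript was measured next. It is in part set by the rule, which keeps peaks in the 5′ UTR and leaves out those that reach coding sequence, and by the choice of the nearest start. The centres stood at a median spliced distance of 97 bases from the nearest annotated start in the small intestine (83 peaks with the centre in a 5′ UTR exon; 95% interval of the median 66 to 135), 102.5 in mAb (1108 peaks; 93 to 111) and 87.5 in rAb (630 peaks; 81 to 95). About equal shares fell within the first 100 bases, 50.6%, 49.5% and 55.2%. The first exon held 91 of 91 small intestine peaks, 1052 of 1150 mAb peaks (91.5%) and 575 of 637 rAb peaks (90.3%). Relative to the length of the 5′ UTR, the median position was at 40.0%, 44.6% and 44.7% of the way to the start codon. The choice of transcript set the distance: measured in the protein-coding transcript with the longest 5′ UTR the medians were 136, 161 and 155.5 bases.

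**Figure D3:**
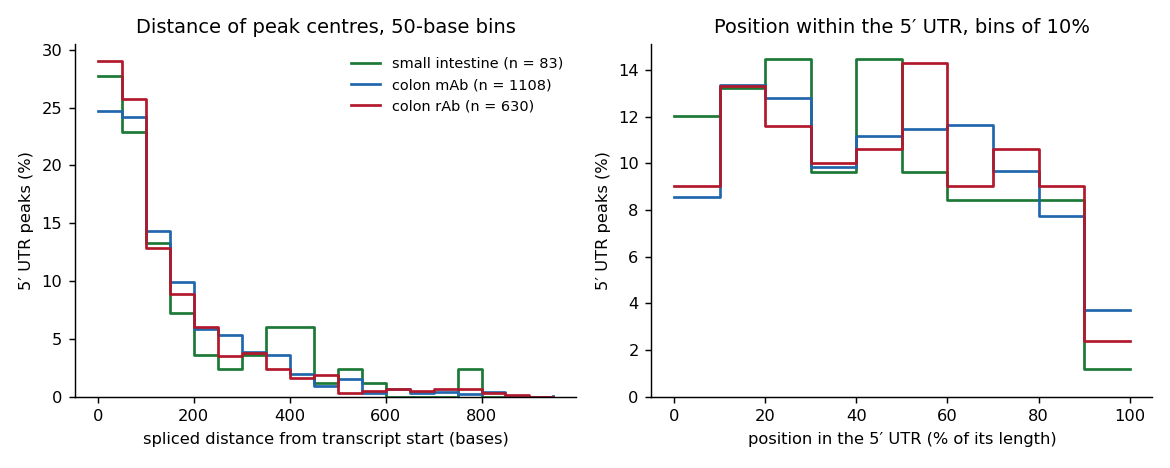
Left, share of 5′ UTR peaks (y axis, %) by spliced distance of the peak centre from the nearest annotated transcript start (x axis, bases, bins of 50 up to 1000; 11 mAb and 4 rAb peaks lie farther out). Right, share by position along the 5′ UTR (x axis, % of its length, bins of 10%); the medians are 97, 102.5 and 87.5 bases and 40.0%, 44.6% and 44.7%, and the bin next to the start codon is the lowest in each, as the rule leaves out peaks that reach coding sequence.

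The bases under the peaks were rich in G and C. Their median GC content was 75.5% in the small intestine (95% interval of the median, 73.1 to 77.8), 75.0% in mAb (73.8 to 75.9) and 71.0% in rAb (69.9 to 72.2), where all peaks of these lists had medians of 59.7%, 56.0% and 55.6%. More than 60% of bases were G or C in 81 of 91 small intestine peaks, 960 of 1150 mAb peaks and 508 of 637 rAb peaks. Annotated 5′ UTRs are themselves rich in G and C. The longest annotated 5′ UTR of a gene had a median of 59.1% over 19994 genes, and 63.9%, 65.2% and 65.4% over the genes with any listed peak in the small intestine, mAb and rAb. Over the genes that carried a 5′ UTR peak the medians were 65.2% in the small intestine (70 genes), 67.1% in mAb (909 genes) and 66.4% in rAb (502 genes). The peaks thus had a higher median than the longest 5′ UTRs of the genes on which they lie. All 14 mAb sites and 8 of 10 rAb sites were above 60%. The longest 5′ UTRs of these genes had median lengths of 363.5, 344 and 322 bases, against 263.5, 243 and 240 over the genes with any listed peak and 209 over the 19994 genes.

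**Figure D4:**
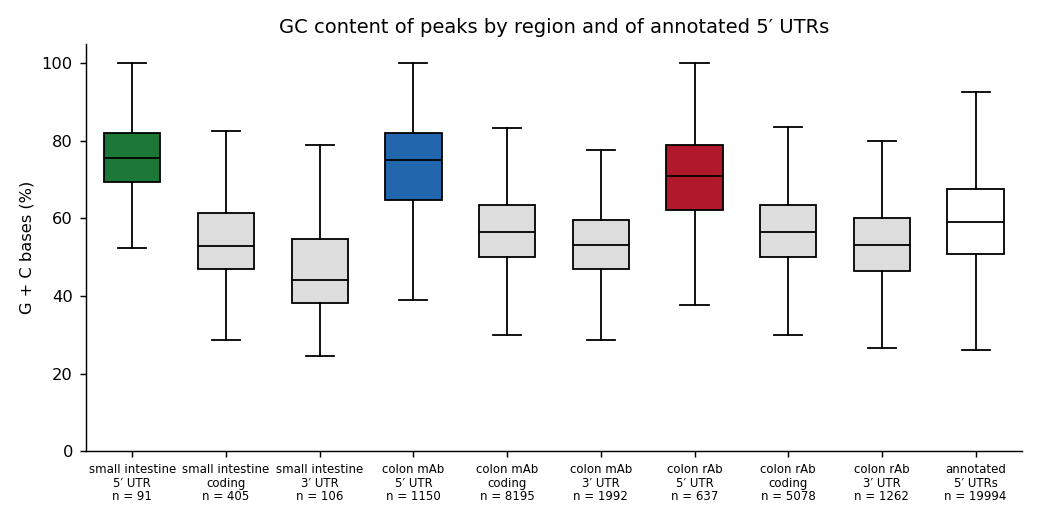
GC content (y axis, % of bases) of 5′ UTR peaks (coloured), coding sequence and 3′ UTR peaks (grey) of each list and of the longest annotated 5′ UTR of each gene (white); boxes span the quartiles with the median as a line, and whiskers reach the farthest value within 1.5 times the box. The 5′ UTR boxes have medians of 75.5%, 75.0% and 71.0%, above the 59.1% of annotated 5′ UTRs.

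Short motifs were counted in the 30 bases around each peak centre, on the strand of the peak only. A CG dinucleotide was found in 91.2% of small intestine, 91.8% of mAb and 90.1% of rAb 5′ UTR peaks, against 65.4%, 55.3% and 56.4% of the other peaks of those lists. The middle 30 bases of the longest annotated 5′ UTR held one in 66.5% of all genes, and in 81.4%, 86.6% and 87.6% of the genes with a 5′ UTR peak. GGCGGC, which contains CG, was in 12.1%, 12.3% and 10.4% of 5′ UTR peaks and in 3.64% of the middles of all annotated 5′ UTRs. In the genes with a 5′ UTR peak those middles held it in 10%, 7.59% and 4.38%, so the small intestine shares were close. Its reverse complement GCCGCC was in 7.69%, 8.35% and 6.44% of 5′ UTR peaks, against 2.82% of all middles and 5.71%, 5.39% and 4.58% of those in genes with a 5′ UTR peak. ATG, the letters of a start codon, was in 6.59%, 8.35% and 10.7% of 5′ UTR peaks, against 27.6%, 34.0% and 35.2% of the other peaks, 18.3% of the middles of all annotated 5′ UTRs, and 17.1%, 15.3% and 15.1% of those in genes with a 5′ UTR peak. GAAGA, a purine-rich motif, was in 4.40%, 2.17% and 2.35%, against 11.7%, 7.41% and 8.09% of the other peaks, but the middles of annotated 5′ UTRs held it in 4.18% of all genes and in 4.29%, 3.52% and 2.19% of the genes with a 5′ UTR peak. Among the printed sequences, CG occurs in all but that of 2410002F23Rik. A match is a description of these letters and not a binding site.

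To see which 5′ UTR peaks recurred, the lists were overlapped by at least 1 base on the same strand. Of the 91 small intestine peaks, 41 (45.1%, 34.6 to 55.8) overlapped 1 of the mAb 5′ UTR peaks and 17 (18.7%, 11.3 to 28.2) 1 of the rAb 5′ UTR peaks; as shares of the colon lists these were 35 of 1150 (3.04%) and 16 of 637 (2.51%). Between the colon lists, 227 of 1150 mAb peaks (19.7%, 17.5 to 22.2) met 228 of 637 rAb peaks (35.8%, 32.1 to 39.7). To read these shares against their lists, any called peak was taken as a partner. Of small intestine peaks, 48.4% of 5′ UTR peaks and 35.8% of all peaks then overlapped a mAb peak, and 19.8% and 19.3% a rAb peak. Of mAb peaks, 21.4% of 5′ UTR peaks and 18.2% of all peaks overlapped a rAb peak, and of rAb peaks 39.7% and 32.0% overlapped a mAb peak. No test was run on these differences. Being called in the colon did not mean being enriched there. Against any called mAb peak, 44 small intestine peaks had a partner, whose best log2 fold had a median of 1.15, was above 0 in 41 and passed the cutoff in 6. Abutting intervals that met the same mAb peak count separately here, and the 6 include the 3 intervals of Zfhx3. The 18 with a called rAb peak had a median of 1.49, and the highest overlapping rAb 5′ UTR peak had 2.65 (Ctnnb1 and Tab2), short of the cutoff. As background, 83.9% of all mAb peaks and 92.1% of all rAb peaks had a log2 fold above 0.

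A 5′ UTR site in 2 lists was found on 4 of the 84 genes with a 5′ UTR site in any (4.76%). Over sites in all regions, 98 of 656 genes (14.9%) had a site in 2 or more lists. There the sites of a gene could lie in any region in each list, so the 2 shares are not like measures. Ctnnb1, Zfhx3 and Ptp4a1 had one in the small intestine and in mAb, and Dynll1 in mAb and rAb. For Ctnnb1 the log2 fold of the overlapping peaks was 4.56 in the small intestine, 5.24 in mAb and 2.65 in rAb (4 IP over 2 input reads, −log10 p 1.48), so the peak was called in all 3 lists and past the cutoff in 2. Zfhx3 had 8.17 in the small intestine and 4.81 in mAb from a mAb peak of 29 bases that overlapped all 3 small intestine intervals, and its rAb peak, farther along the same exon, had 3.24 from 3 reads over 1. Ptp4a1 had 5.26 and 4.02, both peaks reaching before the annotated start, by 102 and 52 bases. Dynll1 had 3.44 in mAb and 3.86 in rAb (44 over 6 and 37 over 8 reads), but its 30 bases at the centre of the peak had 3 exact copies in the genome for mAb and 2 for rAb, so the reads may belong to a copy; at the 113 other sites the 30 bases around the centre had 1 copy in the assembly used, and ribosomal RNA precursors were not searched. Kctd20 had a peak on identical bounds in both colon lists, with 4.96 in mAb and 2.65 in rAb (8 over 4, −log10 p 2.66). Prdx2 had the largest gap of the 245 overlapping mAb and rAb pairs, with 4.11 in rAb and -0.61 in mAb.

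Over 1184 genes with a 5′ UTR peak in any list, 23 had one in all 3, and each of the 23 was past the cutoff in the small intestine by the make of that list. Their best log2 fold had a median of 3.89 in the small intestine (3.0 to 8.17), 0.89 in mAb (-0.44 at Lgr4 to 5.24 at Ctnnb1) and 1.33 in rAb (-0.12 at Actb to 3.24 at Zfhx3). In mAb 21 of the 23 were above 0 and 2 were above 3, and in rAb 22 and 1 were. Hnrnpk, second in the small intestine, had 0.37 in mAb and 1.65 in rAb, from peaks at another place of the gene. BC005537 (4.44, 2.15 and 2.98), Tab2, an adaptor of the kinase TAK1 (4.12, 2.56 and 2.65), and 1810013L24Rik (4.19, 2.0 and 2.07) were the genes other than Ctnnb1 and Zfhx3 that had at least 2 in every list. These best values need not share a place. The BC005537 peaks did not overlap and rested on 3 reads over 1 in mAb. The Tab2 mAb peak of 2.56 overlapped no small intestine 5′ UTR peak, and the pair that did overlap had 3.26 and 0.56 (6 reads over 6 in mAb). At 1810013L24Rik the rAb peak overlapped the small intestine interval of 3.82 and not that of 4.19. The remaining genes were Ubp1, Zbtb14, Tax1bp1, Gnaq, Ube2d3, Klf3, Abi1, Rock2, Rbm39, Ccng2, Atp2a2, Canx, Eif1, Slc25a3 and Nus1.

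**Figure D5:**
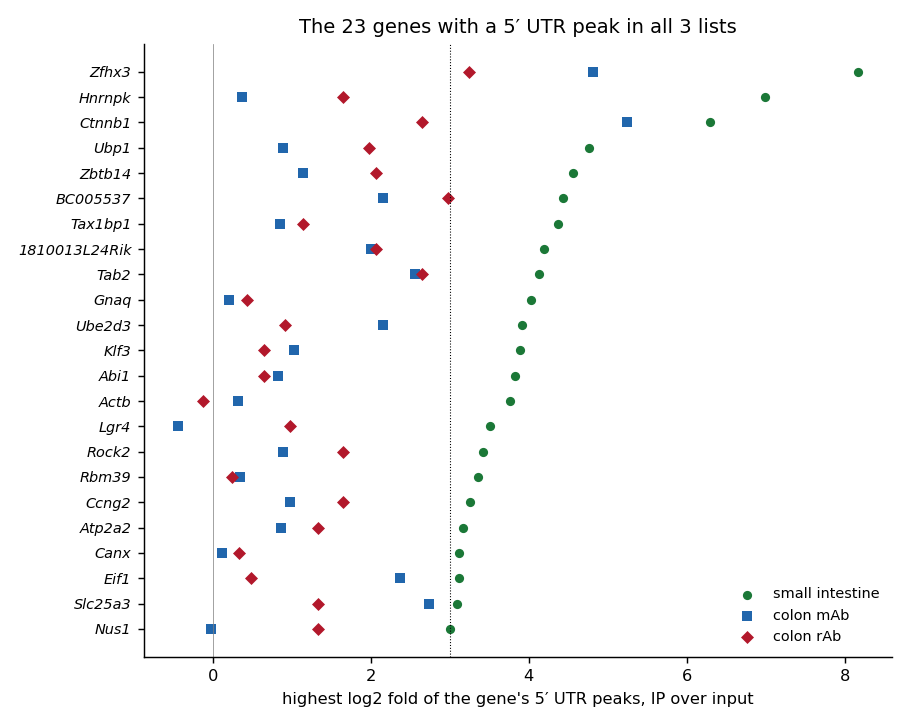
Highest log2 fold of IP over input among the 5′ UTR peaks of a gene (x axis) for the 23 genes with such a peak in all 3 lists (y axis), with circles for the small intestine, squares for colon mAb and diamonds for colon rAb; the dotted line marks 3. All circles lie at 3.0 or above, as the list was deposited past that cutoff, while 2 squares (Ctnnb1 and Zfhx3) and 1 diamond (Zfhx3) do.

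Gene groups were read by how many members carried a 5′ UTR peak and how many of those passed. For reading these counts, 70 of 438 protein-coding genes with a listed peak in the small intestine (16%), 909 of 4950 in mAb (18.4%) and 502 of 3408 in rAb (14.7%) carried a 5′ UTR peak. Translation genes with known 5′ UTR control were the first of these groups. Ribosomal protein and other genes with a 5′ terminal oligopyrimidine tract are regulated by growth signals through the first bases of the mRNA. Of the 116 genes of this group, 99 carried any listed peak in mAb and 95 in rAb. In mAb the group had 40 5′ UTR peaks on 28 genes, with a median log2 fold of -0.08 and a highest of 2.56. In rAb it had 36 on 24 genes, with 0.62 and 2.24. Also counted in the group was the kinase gene Rps6ka3 (1.05 in mAb), which encodes no ribosomal protein. The mAb median turned positive, 0.15 over 31 peaks, without the 9 peaks of Rpl32 on Snora7a, and the rAb median was 0.65 over 28 peaks without Rpl32. With or without Rpl32 these medians lay below those of all 5′ UTR peaks, 1.06 and 1.65. In the small intestine 5 of the 116 genes had any listed peak and their 5′ UTRs had none. Of 20 genes grouped for upstream open reading frames or a part in start codon choice, 5 carried any small intestine peak and 3 a 5′ UTR site. These were Atf4, the stress-response transcription factor (3.47), and Eif5 (3.93) and Eif1 (3.12), factors of start codon choice. In the colon Eif5 had 3.15 in mAb from 6 reads over 1 and Eif1 2.37 from 7 over 2, and neither passed. Of the 8 genes with iron-responsive elements, 7 carried any listed peak in mAb and 4 in rAb. They had 2 5′ UTR peaks in each colon list, at -0.55 and 0.66 in mAb and -0.61 and 1.46 in rAb.

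Immediate-early genes, which are transcribed within minutes of a stimulus, had 7 small intestine 5′ UTR sites on 4 of 40 genes, 15 of which had a listed peak there. Jun, a subunit of the transcription factor AP-1, had 3 along its 5′ UTR of 951 bases, with centres 416, 485 and 782 bases from the start and log2 folds of 4.74, 3.64 and 3.55. The AP-1 gene Fosl2 had 3.45, Zfp36, whose protein speeds the decay of AU-rich mRNAs, 4.44, and the zinc finger gene Klf3 3.89 and 3.37. Of the 40 genes, 34 carried any listed peak in mAb and 21 in rAb. They had 17 5′ UTR peaks on 13 genes in mAb (median 0.83, highest 3.15) and 6 on 6 in rAb (median 0.95, highest 3.24), all short of the cutoff. Among cytoskeleton, keratin and junction genes, 27 of 58 carried any small intestine peak and 5 a 5′ UTR site, namely Ctnnb1, Pls1, the tight junction gene Ocln (4.81), Actb (3.76) and the p120 catenin gene Ctnnd1 (3.53), and in the colon Ctnnb1 alone passed, among 30 peaks in mAb (median 0.56) and 19 in rAb (median 0.65).

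Small intestine counts of the other groups are given over their genes with any listed peak there. SR protein and hnRNP genes had a 5′ UTR site on 2 of 11, Hnrnpk and Ptbp3 (4.65), with medians of 0.24 over 13 mAb peaks and 0.93 over 14 rAb peaks. Chaperone genes had one on 2 of 11, Hsp90aa1 (4.72) and Canx (3.12), with medians of -0.03 over 8 mAb and 0.70 over 6 rAb peaks. Sumo3, the leading rAb gene (5.65), had a peak of 2.89 in mAb from 5 reads over 1. Enterocyte and goblet cell genes had a small intestine 5′ UTR site on 1 of 16, Pigr (3.67), the receptor that carries IgA across the epithelium. RNA helicase genes had a small intestine 5′ UTR site on none of 2, and 4 5′ UTR peaks in mAb (median 0.21) and 3 in rAb (median -0.08). Each of these small intestine genes passed because that list holds passing peaks only, so their number says which genes were listed and not how strongly a group was bound.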

How the data were processed

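Libraries were trimmed with cutadapt 1.9.1, aligned with STAR 2.4.0i to mm10 and handled with SAMtools 1.4.1, per the submitters' processing notes, and peaks were called with CLIPper on the IP library. The log2 fold was deposited by the authors as depth-normalized IP reads over input reads at a peak, and the −log10 p deposited by the authors tests the same reads, up to a cap of 400. The small intestine list was merged over 2 replicates with the Irreproducible Discovery Rate and cut at 3 for both values; the colon lists hold all called peaks, their names mark merged replicates, and the colon libraries were single-end where those of the small intestine were paired-end. A further peak table, with 2 columns of values, could be tied to no sample and was left out.

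Peaks were placed on GENCODE M21 (GRCm38, the build of the files) and coordinates count from 1. The gene named was that of the transcript with most 5′ UTR bases under the peak; 13 mAb and 8 rAb peaks fell on more than 1 gene. Distances were taken in the transcript with the nearest start. Bases were read from the RefSeq GRCm38.p6 assembly, and copies were sought with BLAST+ 2.17.0. Colon reads were traced as the smallest whole numbers that return the deposited fold and p (Fisher's exact test, or chi-square with Yates' correction) within 1%, reading the commonest fold as 3 IP reads over 1 input read: 99.2% of 13011 mAb and 99.6% of 8282 rAb peaks with a −log10 p above 0 and under the cap were traced. Tested on simulated reads, tracing returned 100% of 390 mAb and 98.5% of 389 rAb pairs. Depth of the small intestine libraries is unknown here. Medians have 95% intervals from binomial ranks (Python 3.11.15, scipy 1.17.1). No test was run between lists, since each group has 1 list. Genes were named by rank of log2 fold (10 per list), number of peaks (5 per list), recurrence across lists, membership in gene lists, or a place next to the cutoff. The members and gene lists were chosen with earlier results of these data known. Some genes and 1 gene list are not reported here.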

Additional observations from a re-analysis of the deposited data

How the results depend on the processing

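Of 64 recomputed values over 18 results, 51 stayed within 1.5 times the count or within the 95% interval of the median, and 13 moved; no median changed sign. Cutoffs moved the sites: a log2 fold above 4 left 40 of the 91 in the small intestine, and a log2 fold above 1 gave 23 in mAb and 18 in rAb (2.55% and 4.46% of all peaks of those lists passed it). Allowing overlap with coding sequence raised the rAb 5′ UTR peaks from 637 to 980. Leaving out peaks on small RNA genes, an alternative chosen after seeing the data, left 6 rAb sites. With at least 10 IP reads the median log2 fold was 1.30 in mAb and 1.23 in rAb. With 15 bases added on each side the median GC content of mAb peaks was 72.6%. In the transcript with the longest 5′ UTR the median distance was 136 bases in the small intestine, 161 in mAb and 155.5 in rAb. A reciprocal overlap of 50% left 20 small intestine peaks shared with mAb and 11 shared with rAb. The other alternatives, all within those bounds, were protein-coding transcripts only, at least 50% of bases in 5′ UTR exons, joined intervals, a −log10 p cutoff of 5, genes in place of sites, and any called peak as a partner. Values of each small intestine replicate and values without a replicate were not run, because the list gives merged values only. No paired analysis was possible because each list holds 1 value per peak over its replicates and no test was made. Low read numbers limit the colon folds. Tissue, sequencing layout, peak selection and perhaps age and genotype changed together between the small intestine and the colon, so they cannot be told apart.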
